A study of Mus musculus with 18 samples.

Results

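The amino acid, transporter and tRNA synthetase genes described here are 47 genes linked to ATF4, a transcription factor of the integrated stress response, with Atf4 itself among them. The set was followed in cultured mouse leukaemia cells whose Jmjd1c gene was targeted with Cas9. The genes were taken from a list by name, with earlier results of these data known. Counts of members set beside shares of all genes are therefore not independent of that choice. Levels are in FPKM (fragments per kilobase of transcript, scaled to the number of fragments in the library). Genes of the list were kept for testing where the mean over all 18 libraries was at least 1 FPKM. That held for 46 of the 47, out of 11550 genes so tested and 23899 genes measured. The gene left out, Cbs, averaged 0.041 FPKM. The 46 fall into 11 stress regulators and effectors, 9 genes of serine synthesis and one-carbon metabolism, 6 other amino acid enzymes, 8 amino acid transporters and 12 cytosolic tRNA synthetases.

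All 18 libraries come from one kind of cell, a primary mouse leukaemia that carries the MLL-AF9 fusion oncoprotein and Cas9 and was grown with mouse interleukin-3, a cytokine for myeloid progenitors. The 6 groups of 3 libraries are 4 groups with a guide RNA against Jmjd1c (named e12.3 and e12.4, e20.1, and e21.1 in the labels), a group with a guide against Renilla luciferase, which has no target in the mouse genome, and a group called mock. The guides were aimed at the jumonji or the zinc finger domain of JMJD1C, a nuclear protein of the H3K9 demethylase family. The sources used here do not give which guide goes with which domain, what mock received, or whether replicates come from separate cultures. A p-value therefore covers no more than the spread between libraries, which may be technical.

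ATF4 is the main transcription factor of the integrated stress response. Kinases that sense amino acid shortage, unfolded protein, double-stranded RNA or lack of haem phosphorylate the translation factor eIF2, which lowers general translation while raising translation of the Atf4 messenger RNA. ATF4 protein then pairs with C/EBP factors at short C/EBP-ATF response elements and turns on genes that make amino acids, carry them into the cell and load them onto tRNAs, and, under lasting stress, genes such as Ddit3 and Trib3. Because ATF4 is controlled largely through its translation, the level of the Atf4 transcript does not measure the protein.

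The response element, a feature that expression did not define, is shown for some of the members. Because the members were listed by name for their link to ATF4, their share of matches is not independent of that choice. It was searched as TGATGNAA on both strands of the 300 bases from 250 before to 50 after each RefSeq start site (GRCm38.p6), and 37 of the 47 members have such a window in the table used. The element was found in 15 of the 37 (40.5%), against 4.51% of the 27025 genes in the table and 2.84% of the 8454 tested genes in it. Each line gives 30 bases from the gene's own strand, 5′ to 3′, with the matching letters in capitals. The genes shown are some of these 15. They are the cystine carrier Slc7a11, which has a pair of matches, the stress genes Chac1, Trib3 and Vldlr, the enzymes Asns and Pck2, the transporter Slc1a4, and the synthetases Gars, Yars and Iars. All of them fell against Renilla when 2 libraries that stand apart, described below, were left out. Nupr1, Pycr1, Tars, Aars and Got1 also hold a match and are not shown. Of these, Nupr1, Pycr1 and Tars were not called in that comparison.
Slc7a11 (chr3:50443661-50443690, minus strand): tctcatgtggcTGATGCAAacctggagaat
Slc7a11 (chr3:50443642-50443671, minus strand): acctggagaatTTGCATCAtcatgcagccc
Chac1 (chr2:119351038-119351067, plus strand): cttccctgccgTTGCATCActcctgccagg
Trib3 (chr2:152344028-152344057, minus strand): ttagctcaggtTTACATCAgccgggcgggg
Vldlr (chr19:27216809-27216838, plus strand): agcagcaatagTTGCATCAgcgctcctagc
Asns (chr6:7693214-7693243, minus strand): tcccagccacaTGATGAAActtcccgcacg
Pck2 (chr14:55540152-55540181, plus strand): agccttcaaagTTACATCAgtatcttacag
Slc1a4 (chr11:20332699-20332728, minus strand): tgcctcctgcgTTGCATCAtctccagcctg
Gars (chr6:55037960-55037989, plus strand): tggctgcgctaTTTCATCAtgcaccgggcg
Yars (chr4:129189895-129189924, plus strand): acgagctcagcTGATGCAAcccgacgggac
Iars (chr13:49682126-49682155, plus strand): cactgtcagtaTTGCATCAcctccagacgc

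The matches are spread unevenly over the roles. They occur in 5 of 7 synthetases, 4 of 5 other amino acid enzymes, 4 of 10 stress genes and 2 of 6 transporters, and in none of the 8 serine and one-carbon genes with a window. A match is a description of letters and not a measured binding site. In Slc7a11, which encodes the cystine and glutamate exchanger, both matches lie within the 250 bases before the start (chr3:50443614-50443863, minus strand), in opposite orientations and close to each other.
Slc7a11 upstream: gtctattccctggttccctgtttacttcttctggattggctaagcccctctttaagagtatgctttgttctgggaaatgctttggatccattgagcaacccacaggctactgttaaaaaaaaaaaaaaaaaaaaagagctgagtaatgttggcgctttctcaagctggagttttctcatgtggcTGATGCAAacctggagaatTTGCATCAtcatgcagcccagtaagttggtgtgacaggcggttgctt

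Depth, estimated from the size of the FPKM steps of weakly expressed genes, was 22.2 to 195.7 M reads per library (median 34.35 M). Markers of the myeloid lineage were present in every library: summed over 7 markers of myeloid progenitors, the level was 1988 to 5139 FPKM in the 12 guide libraries, 4683 to 5577 in Renilla and 5027 to 5283 in mock. Of these 7, Cd34 averaged higher with the guides, at 216.4 ± 53.8 FPKM, against 134.7 ± 12.65 in Renilla and 132.2 ± 6.24 in mock. The 5 erythroid markers summed to at most 0.843 FPKM in any library, and 3 of them averaged under 0.1 FPKM. Jmjd1c itself ranged over 42.2 to 74.4 FPKM (median 65.0) in the 12 guide libraries, against 64.2 to 85.4 in Renilla and 71.8 to 77.1 in mock (log2 fold change -0.29 against Renilla, limma adjusted p = 0.19). A pair of the 12 guide libraries stood apart from the others of their group on a principal component that held 21.9% of the variance: replicate 3 of e12.3 scored -41.1 and replicate 3 of e21.1 scored -49.9, while the other 16 libraries scored above 0. The results are therefore given with and without these 2 libraries. Summed over 6 monocyte markers, the level was 246 to 478 FPKM in the 12 guide libraries, against 129.9 to 146 in Renilla and 122 to 124.2 in mock. Lyz2 was the largest of the 6 in every library. Fcgr1, also in this list, was not higher, at 6.31 ± 2.53 FPKM in the 12 guide libraries, 7.51 ± 1.70 in Renilla and 7.73 ± 1.05 in mock. Csf1r, Ctss, Ly86, Irf8 and Lyz2 averaged higher than in both controls. The part of these marker differences in the levels of the members was not tested. In RNA from whole cultures, fewer cells that express a gene and less of its RNA per cell cannot be told apart.

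Over all 12 guide libraries the set stood lower than in the controls by a small amount that few members showed alone. The log2 fold change, computed on log2(FPKM + 1), was below 0 for 41 of the 46 members against Renilla, with a median of -0.27 where the median of all genes tested was -0.03. By limma, with p-values adjusted over all 11550 genes and called under 0.05, 5 members fell and none rose. Of all genes tested, 3.21% fell in this comparison, and 7.77% rose. Against mock the median was -0.21, beside -0.02 for all genes tested. In that comparison 1 member fell, beside 2.16% of all genes, and none rose, beside 6.84%. The 5 that fell against Renilla were Psat1, Shmt2, Eprs, Lars and Iars, and Shmt2 was the one that fell against mock. Single libraries moved these counts. For fits that leave out a single library, here and below, the share of all genes called is not given. Their counts therefore do not separate a change in the members from a change over all genes. Against Renilla 16 members were called without replicate 3 of e12.3, 11 without replicate 3 of e21.1, 3 without replicate 3 of e12.4, 3 without Renilla replicate 2 or 3, and 1 without Renilla replicate 1. Against mock 10 were called without replicate 3 of e12.3, 4 without replicate 3 of e21.1, 2 without replicate 2 or 3 of e20.1, replicate 2 of e21.1 or replicate 1 of Renilla, and none without mock replicate 2 or 3.

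Without replicate 3 of both e12.3 and e21.1, which held the highest levels of most of these genes, many more members passed the test. Against Renilla 34 of 46 fell, beside 7.07% of all genes, and none rose, beside 11%. The median of the members was -0.36, beside -0.03 for all genes tested, and the range was -1.13 to 0.30. Against mock 25 fell, beside 6.31% of all genes, and 1 rose (Ppp1r15a), beside 9.95% of all genes. The median was -0.28. Replicate 2 of e20.1 and replicate 1 of Renilla lay apart on the next component. With these left out as well, 36 members fell against Renilla, beside 7.04% of all genes, and none rose, beside 12.1%. Against mock 35 then fell, beside 12.1% of all genes, and 2 rose, beside 13.8%.

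**Figure D1:**
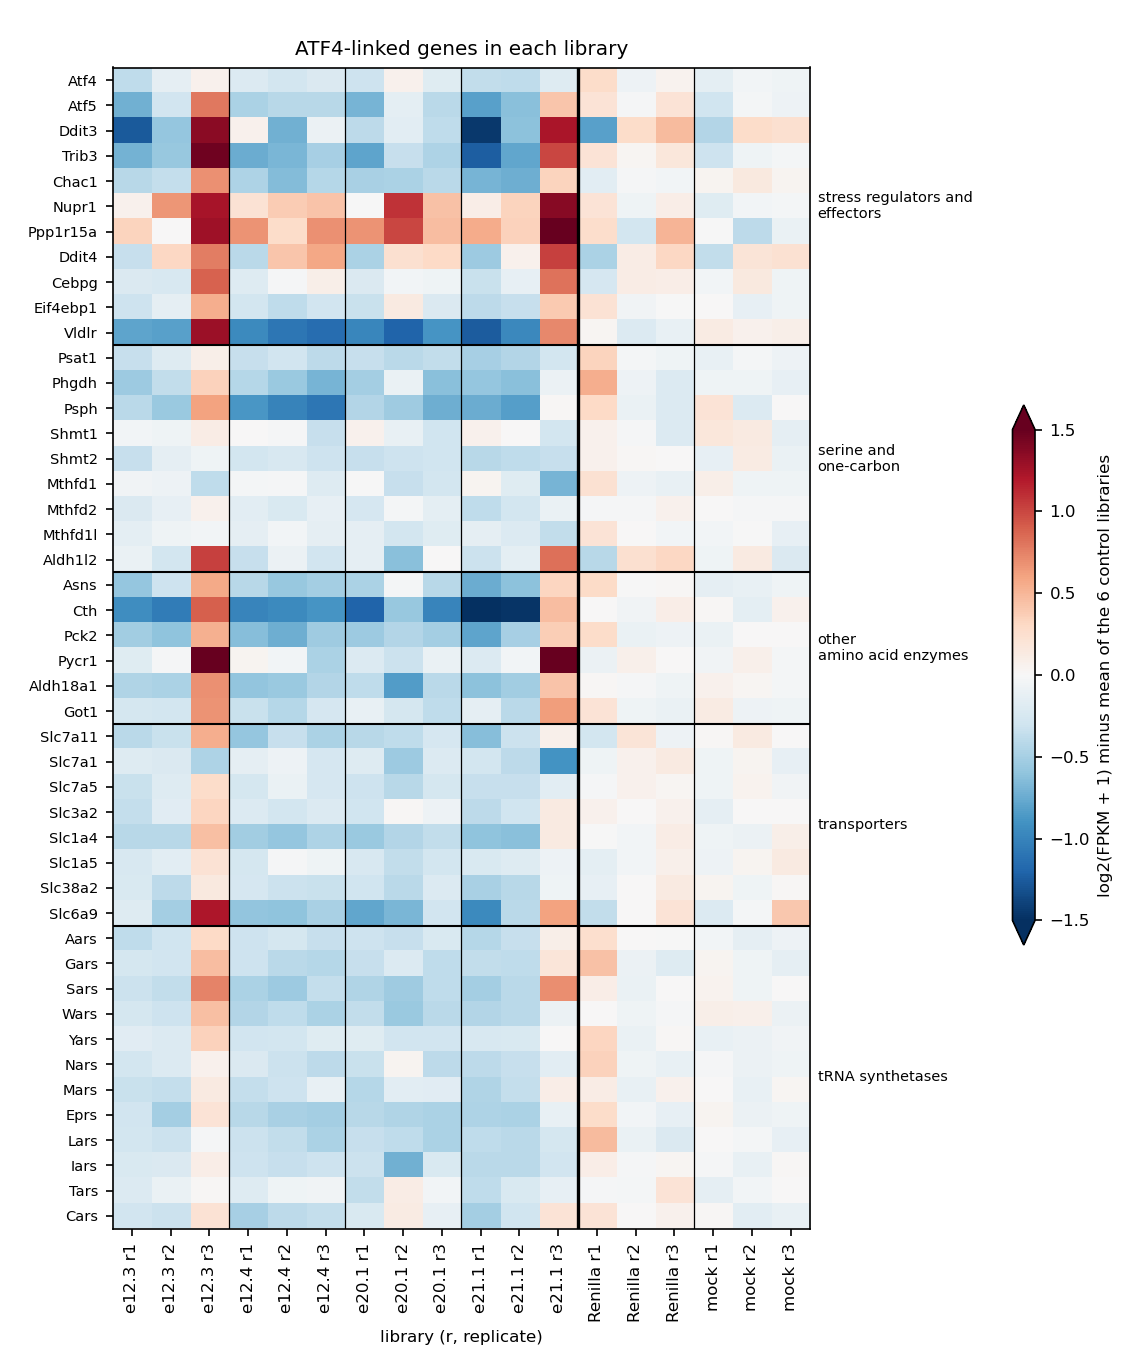
Heat map of the 46 tested members (rows, grouped by role) in the 18 libraries (columns, guides first), coloured by log2(FPKM + 1) minus the gene's mean over the 6 control libraries, with colours saturated at ±1.5. The columns of replicate 3 of both e12.3 and e21.1 are mostly above the control mean, with medians over the members of 0.45 and 0.11, while the 10 other guide libraries have medians of -0.43 to -0.29.

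Few members separated all 12 guide libraries from a control group. All 12 lay below every Renilla library for Shmt2 and Slc7a1 alone (2 of 46 members, beside 2.98% of all genes tested), and for no member did all 12 lie below every mock library, beside 3.41% of all genes. With the 2 libraries left out, the remaining 10 lay below all 3 Renilla libraries for 25 members, beside 6.38% of all genes, and below all 3 mock libraries for 24, beside 8.55%. Nupr1 and Ppp1r15a went the other way: all 12 guide libraries lay above every mock library for both, beside 6.52% of all genes.

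Among the stress regulators and effectors none of the 11 was called over all libraries, and 6 fell against Renilla without the 2 libraries (Atf4, Atf5, Trib3, Chac1, Eif4ebp1 and Vldlr). Counts by role, here and below, stand beside the shares of all genes that fell. These were 3.21% against Renilla and 2.16% against mock over all libraries, and 7.07% and 6.31% without the 2. The median of the group was -0.23 with all libraries and -0.34 without the 2. Atf4 stood at 286, 342 and 391 FPKM under e12.3, 325, 309.7 and 320.1 under e12.4, 300.4, 390.1 and 330.3 under e20.1, and 288, 286 and 328 under e21.1. In the controls it stood at 455, 353 and 387 FPKM in Renilla and 337, 363 and 359 FPKM in mock. Of the 12 guide libraries 10 lay below the lowest Renilla library, the exceptions being replicate 3 of e12.3 and replicate 2 of e20.1, and 9 lay below every mock library. The log2 fold change against Renilla was -0.29 with SE 0.10, limma adjusted p = 0.0735 with all libraries, and -0.34 with SE 0.09, limma adjusted p = 0.0194 without the 2. Against mock Atf4 was not called in either setting (-0.17 without the 2, limma adjusted p = 0.239).

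Ddit3 encodes CHOP, a transcription factor of prolonged stress. Its levels were 12.1, 20.09 and 79.1 FPKM under e12.3, 32.02, 18.1 and 28.6 under e12.4, 23.1, 27.3 and 23.3 under e20.1, and 10.5, 19.6 and 73.0 under e21.1. Renilla held 16.8, 37.4 and 42.7 FPKM and mock 22.2, 37.1 and 36.1 FPKM. Both stand-apart libraries exceeded every control, the other guide libraries overlapped with the controls, and Renilla replicate 1 was lower than the other Renilla libraries. Ddit3 was not called against Renilla with all libraries (-0.23 with SE 0.50, limma adjusted p = 0.834) or without the 2 (-0.60, limma adjusted p = 0.157). Its exons share 68 bases with those of Mars on the opposite strand, and the sources used here do not say whether strand was used in quantification.

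Trib3, a pseudokinase that restrains ATF4 and AKT signalling, was found at 22.3, 24.8 and 104 FPKM under e12.3, 21.8, 22.8 and 26.0 under e12.4, 21.0, 29.0 and 26.7 under e20.1, and 15.2, 21.2 and 75.0 under e21.1, against 43.1, 37.8 and 41.9 FPKM in Renilla and 29.8, 35.4 and 36.3 FPKM in mock. The 10 other guide libraries lay below every control library and the 2 that stand apart lay above every one. Without those 2, Trib3 fell against Renilla (log2 fold change -0.84 with SE 0.11, limma adjusted p = 0.000111) and against mock (-0.57 with SE 0.11, limma adjusted p = 0.00269). With them it was not called (-0.50 with SE 0.41, limma adjusted p = 0.494 against Renilla). Chac1, which degrades glutathione, showed the same arrangement at lower levels. It was at 10.01, 10.5 and 22.5 FPKM under e12.3, 9.70, 8.39 and 9.90 under e12.4, 9.45, 9.56 and 10.04 under e20.1, and 8.03, 7.84 and 17.4 under e21.1, against 12.1, 13.5 and 13.3 FPKM in Renilla and 14.1, 15.3 and 14.1 FPKM in mock. Chac1 fell without the 2 libraries, with log2 fold changes of -0.44 against Renilla and -0.59 against mock (limma adjusted p = 0.000209 and limma adjusted p = 1.54e-05).

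Vldlr, a lipoprotein receptor, had the largest difference of the stress group against Renilla. It was at 0.993, 0.964 and 7.37 FPKM under e12.3, 0.787, 0.628 and 0.567 under e12.4, 0.753, 0.506 and 0.879 under e20.1, and 0.454, 0.758 and 4.69 under e21.1, against 2.53, 1.995 and 2.19 FPKM in Renilla and 2.75, 2.63 and 2.67 FPKM in mock. Outside the 2 libraries that stand apart every guide library lay below every control library. Without them Vldlr fell (-0.90 with SE 0.10, limma adjusted p = 2.12e-05 against Renilla), and with them it was not called (-0.58, limma adjusted p = 0.393). Atf5, an ATF4 relative, fell without the 2 libraries to 69.6 ± 10.3 FPKM (n = 10 libraries), against 108 ± 9.67 FPKM in Renilla and 89.6 ± 8.83 FPKM in mock (n = 3 each), by log2 fold changes of -0.66 and -0.39. Eif4ebp1, which encodes a repressor of cap-dependent translation, was lower by a log2 fold change of -0.31 against Renilla (limma adjusted p = 0.0281) and was not called against mock (limma adjusted p = 0.157).

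Cebpg, the C/EBP partner of ATF4, had the smallest difference in the stress group over all libraries. That of Ddit4 was smaller without the 2 libraries, at 0.01 against Renilla and -0.02 against mock. The levels of Cebpg were 22.9, 22.6 and 50.1 FPKM under e12.3, 23.4, 26.4 and 28.7 under e12.4, 23.0, 26.1 and 25.8 under e20.1, and 21.101, 24.7 and 47.9 under e21.1, against 22.5, 29.0 and 28.8 FPKM in Renilla and 26.0, 29.8 and 25.6 FPKM in mock. Apart from the 2 libraries, which were the highest of all 18, the guide and control libraries overlapped. Against Renilla its log2 fold change was 0.04 with all libraries and -0.14 without the 2 (limma adjusted p = 0.333), so its sign turned while it was called in neither.

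A pair of stress genes did not follow the rest. Ppp1r15a encodes GADD34, the phosphatase subunit that reverses eIF2 phosphorylation. It was at 10.9, 8.45 and 21.8 FPKM under e12.3, 14.0, 10.5 and 14.2 under e12.4, 14.0, 17.9 and 12.02 under e20.1, and 12.9, 10.95 and 32.7 under e21.1, against 10.3, 6.84 and 12.44 FPKM in Renilla and 8.39, 6.22 and 7.81 FPKM in mock. All 12 guide libraries exceeded the mock libraries, 7 of 12 exceeded the highest Renilla library, and the Renilla libraries spread widely. It rose against mock without the 2 libraries (0.63 with SE 0.16, limma adjusted p = 0.0157), and was not called with them (limma adjusted p = 0.0812) or against Renilla (0.30, limma adjusted p = 0.232). Nupr1, a small chromatin protein of the stress response, averaged 43.6 ± 15.9 FPKM over the 12 guide libraries, against 30.3 ± 2.88 FPKM in Renilla and 26.8 ± 1.602 FPKM in mock, and was not called in either setting (limma adjusted p = 0.171 with all libraries and 0.11 without the 2, both against mock).

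**Figure D2:**
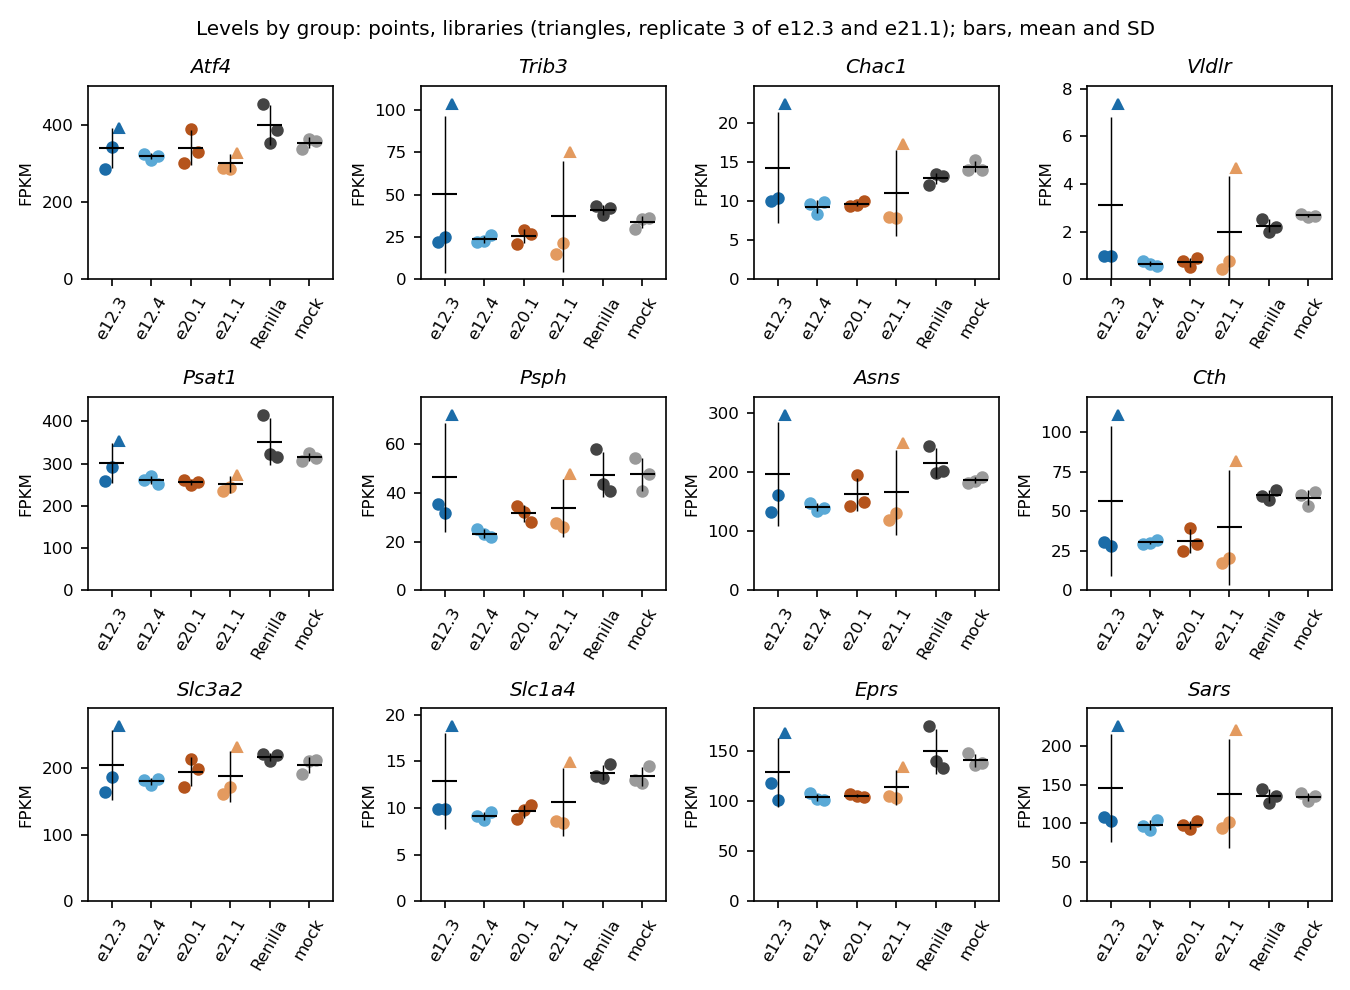
FPKM of 12 members in each library by group, guides to the left of Renilla and mock, on linear axes that start at 0, with horizontal bars for group means, vertical bars for 1 SD, and triangles for replicate 3 of both e12.3 and e21.1. For Trib3, Chac1, Vldlr, Cth and Slc1a4 the triangles stand above all 6 control libraries and the round points of the 4 guides below them.

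The serine and one-carbon group held the one member that fell against both controls over all libraries, Shmt2. Of 9 genes 2 fell against Renilla over all libraries and 6 fell without the 2 libraries (Psat1, Phgdh, Psph, Shmt2, Mthfd2 and Mthfd1l). The median was -0.22 with all libraries and -0.28 without the 2. Phgdh, Psat1 and Psph make serine from a glycolytic intermediate in that order, and Shmt2, Mthfd2 and Mthfd1l carry the one-carbon unit of serine through the mitochondrion.

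Psat1, the aminotransferase, stood at 259, 291 and 352 FPKM under e12.3, 260.0, 270.4 and 253 under e12.4, 262, 249.4 and 256 under e20.1, and 235, 244 and 274 under e21.1. Renilla libraries held 416, 324 and 315 FPKM and mock libraries 307, 325 and 314 FPKM. With the exception of e12.3 replicate 3, every guide library lay below all 6 control libraries, and Renilla replicate 1 was the highest library. Psat1 had a log2 fold change of -0.39 with SE 0.09, limma adjusted p = 0.0116 against Renilla and -0.24 with SE 0.09, limma adjusted p = 0.128 against mock. The call against Renilla was lost when Renilla replicate 1 was left out (limma adjusted p = 0.11) and held in each of the 17 other leave-one-out fits.

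Shmt2, the mitochondrial serine hydroxymethyltransferase, was measured at 259.8, 302 and 316 FPKM under e12.3, 272, 278 and 265 under e12.4, 259, 266 and 269 under e20.1, and 246, 253 and 260.3 under e21.1, against 344, 335 and 333 FPKM in Renilla and 303, 359 and 308 FPKM in mock. All 12 guide libraries lay below the 3 Renilla libraries, and 11 of 12 below the 3 mock libraries, the exception being e12.3 replicate 3. It fell against both controls, with a log2 fold change of -0.32 with SE 0.07, limma adjusted p = 0.00581 against Renilla and -0.26 with SE 0.07, limma adjusted p = 0.0265 against mock. Against Renilla the call held in all 18 leave-one-out fits, with limma adjusted p from 0.0036 to 0.031. Against mock it was lost without mock replicate 2 or mock replicate 3, at a limma adjusted p of up to 0.25.

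Phgdh, the first enzyme of the serine pathway, was at 144, 162 and 264 FPKM under e12.3, 155, 141 and 128 under e12.4, 146, 196 and 135 under e20.1, and 139, 135 and 196 under e21.1, against 304, 197 and 181 FPKM in Renilla and 198, 200.5 and 193 FPKM in mock. Renilla replicate 1 held the highest level, and e20.1 replicate 2 and the 2 libraries that stand apart overlapped with the controls. Phgdh was called against Renilla without the 2 (-0.59 with SE 0.14, limma adjusted p = 0.00925), and narrowly missed the threshold against mock (-0.42, limma adjusted p = 0.0542). Psph, the last enzyme of the pathway, had the largest change of the group. Its levels were 35.5, 31.8 and 72.3 FPKM under e12.3, 25.3, 23.0 and 21.8 under e12.4, 34.6, 32.3 and 28.0 under e20.1, and 27.9, 26.2 and 47.8 under e21.1, against 58.2, 43.9 and 40.8 FPKM in Renilla and 54.3, 41.0 and 47.7 FPKM in mock. The 10 other guide libraries lay below every control, with e12.4 the lowest, and Psph fell without the 2, with a log2 fold change of -0.70 with SE 0.11, limma adjusted p = 0.000426 against Renilla and -0.71 with SE 0.11, limma adjusted p = 0.000408 against mock.

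Mthfd2, the mitochondrial dehydrogenase of the folate cycle, fell by less than Psph. It was found at 166, 178 and 203 FPKM under e12.3, 172, 165 and 177 under e12.4, 162, 189 and 173 under e20.1, and 148, 159 and 180.1 under e21.1, against 189.7, 191 and 203 FPKM in Renilla and 194, 189.6 and 189.9 FPKM in mock. Apart from e12.3 replicate 3, no guide library reached the lowest control library, and the log2 fold change without the 2 was -0.21 against Renilla and -0.19 against mock (limma adjusted p = 0.0217 and limma adjusted p = 0.041). The cytosolic enzyme Shmt1 differed least against Renilla: it was at 52.7, 51.3 and 58.4 FPKM under e12.3, 54.1, 53.1 and 42.3 under e12.4, 56.9, 49.9 and 43.6 under e20.1, and 56.9, 53.9 and 44.5 under e21.1, against 56.3, 53.4 and 46.8 FPKM in Renilla and 60.8, 59.2 and 49.1 FPKM in mock. Guide and control libraries overlapped throughout, and the log2 fold change against Renilla was -0.02 with all libraries and -0.01 without the 2 (limma adjusted p = 0.958). Aldh1l2, which oxidises the folate unit in mitochondria, was at 1.601, 1.299 and 4.65 FPKM under e12.3, 1.196, 1.64 and 1.28 under e12.4, 1.54, 0.801 and 1.79 under e20.1, and 1.25, 1.51 and 3.98 under e21.1, against 1.095, 2.31 and 2.48 FPKM in Renilla and 1.68, 2.09 and 1.40 FPKM in mock. It was highest in the 2 libraries that stand apart, overlapped otherwise, and was not called (log2 fold change 0.00 against mock with all libraries). Its exons share 1056 bases with D10Wsu102e on the other strand, which averaged 1.68 FPKM. Mthfd1, the cytosolic dehydrogenase and synthetase of the folate cycle, was not called against either control in either setting. Mthfd1l fell against Renilla without the 2 libraries (-0.20, limma adjusted p = 0.0352) and was not called against mock.

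The 6 other amino acid enzymes had the largest median difference of the 5 groups. None was called over all libraries, where the median was -0.37 against Renilla. Without the 2 libraries 5 of 6 fell against Renilla and the same number against mock, with medians of -0.54 and -0.47. Cth, the cystathionine lyase that makes cysteine, stood at 30.6, 28.0 and 111 FPKM under e12.3, 29.3, 29.9 and 31.7 under e12.4, 25.1, 39.6 and 29.3 under e20.1, and 17.4, 20.8 and 82.0 under e21.1. Renilla held 59.4, 57.1 and 63.5 FPKM and mock 60.2, 53.4 and 62.2 FPKM. The 10 other guide libraries were all below the controls, e21.1 replicates 1 and 2 lowest, and the 2 libraries that stand apart were above all of them. The log2 fold change of Cth was -0.80 with SE 0.39, limma adjusted p = 0.222 with all libraries and -1.13 with SE 0.11, limma adjusted p = 4.52e-06 without the 2, both against Renilla.

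Asns, which makes asparagine and is the classic amino acid response gene, was at 133, 160.2 and 297 FPKM under e12.3, 148, 134 and 139.8 under e12.4, 142, 195 and 149 under e20.1, and 119, 129.8 and 248.5 under e21.1, against 244, 198 and 202 FPKM in Renilla and 181, 185 and 191 FPKM in mock. Again the 2 libraries that stand apart exceeded every control, and e20.1 replicate 2 lay above the mock libraries but below Renilla. Without the 2, Asns fell, with a log2 fold change of -0.59 with SE 0.10, limma adjusted p = 0.000746 against Renilla and -0.38 with SE 0.10, limma adjusted p = 0.0155 against mock. Pck2, the mitochondrial PEP carboxykinase, averaged 77.3 ± 5.84 FPKM in the 10 other guide libraries, against 119 ± 18.3 FPKM in Renilla and 113 ± 4.54 FPKM in mock (log2 fold changes -0.62 and -0.55, limma adjusted p = 0.000161 and limma adjusted p = 0.000423). Aldh18a1, which starts proline synthesis, averaged 44.7 ± 4.02 FPKM, against 63.7 ± 2.01 FPKM and 65.8 ± 2.09 FPKM in Renilla and mock (log2 fold changes -0.50 and -0.55).

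Got1, the cytosolic aspartate aminotransferase, had the smallest change of this group over all libraries. It was measured at 17.698, 17.5 and 34.8 FPKM under e12.3, 16.9, 15.7 and 17.8 under e12.4, 19.8, 17.8 and 16.2 under e20.1, and 19.5, 15.9 and 33.7 under e21.1, against 24.7, 20.4 and 19.9 FPKM in Renilla and 23.4, 20.3 and 20.4 FPKM in mock. All 10 other guide libraries again lay below the controls and the pair above them, and the log2 fold change without the 2 was -0.29 against Renilla and -0.27 against mock (limma adjusted p = 0.0343 and limma adjusted p = 0.048). Pycr1, which completes proline synthesis, was the member of this group that was not called. It averaged 11.1 ± 1.26 FPKM in the 10 other guide libraries, against 12.39 ± 0.792 FPKM in Renilla and 12.39 ± 0.676 FPKM in mock, while e12.3 replicate 3 and e21.1 replicate 3 held 42.9 and 49.6 FPKM. Its log2 fold change against Renilla was 0.17 with these libraries and -0.15 without them.

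All 8 transporters had a log2 fold change below 0 against both controls in both settings. None was called over all libraries, and without the 2 libraries 6 fell against Renilla and 6 against mock, with medians of -0.33 and -0.30. Slc7a11, the cystine carrier, was low in these cells. It was at 2.35, 2.53 and 5.49 FPKM under e12.3, 1.99, 2.51 and 2.20 under e12.4, 2.32, 2.41 and 2.74 under e20.1, and 1.87, 2.56 and 3.70 under e21.1, against 2.70, 4.07 and 3.21 FPKM in Renilla and 3.51, 3.90 and 3.45 FPKM in mock. The 10 other guide libraries lay below every mock library, and replicate 3 of e20.1 lay within the Renilla range. Slc7a11 fell without the 2, with a log2 fold change of -0.36 with SE 0.10, limma adjusted p = 0.0267 against Renilla and -0.47 with SE 0.10, limma adjusted p = 0.00671 against mock.

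Slc7a5 and Slc3a2 encode the light and heavy chains of the large neutral amino acid exchanger. Slc7a5 stood at 87.5, 96.8 and 134 FPKM under e12.3, 92.1, 103 and 92.7 under e12.4, 88.6, 82.1 and 92.4 under e20.1, and 86.2, 86.2 and 99.0 under e21.1, against 109, 115 and 113 FPKM in Renilla and 105, 114 and 107 FPKM in mock. Only e12.3 replicate 3 among the 12 guide libraries reached the controls, and the log2 fold change without the 2 was -0.31 against Renilla and -0.27 against mock (limma adjusted p = 0.00206 and limma adjusted p = 0.00667). Slc3a2 was at 164, 187 and 265 FPKM under e12.3, 183, 175 and 184 under e12.4, 172, 214 and 199.8 under e20.1, and 161, 171 and 232 under e21.1, against 222, 210.6 and 219.6 FPKM in Renilla and 192, 211.5 and 213 FPKM in mock. In replicate 2 of e20.1 it lay within the Renilla range and above mock, while replicate 3 of e20.1 reached the mock range. Without the 2 it was called against Renilla (-0.28, limma adjusted p = 0.0142) but not against mock (limma adjusted p = 0.0794).

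Slc1a4, an exchanger of alanine, serine and cysteine, had the largest difference of the transporters against Renilla, and Slc6a9 had the largest against mock. The levels of Slc1a4 were 9.89, 9.90 and 18.8 FPKM under e12.3, 9.16, 8.74 and 9.61 under e12.4, 8.85, 9.77 and 10.3 under e20.1, and 8.62, 8.41 and 14.9 under e21.1, against 13.4, 13.2 and 14.7 FPKM in Renilla and 13.0, 12.7 and 14.5 FPKM in mock. All 10 other guide libraries lay below the 6 controls and the 2 that stand apart above them. Its log2 fold change was -0.39 with SE 0.17, limma adjusted p = 0.161 with all libraries and -0.52 with SE 0.07, limma adjusted p = 6.14e-05 without the 2, against Renilla. Slc1a5, the glutamine exchanger, differed least against Renilla (Slc3a2 did against mock), at 92.9, 98.4 and 128 FPKM under e12.3, 91.8, 108 and 106 under e12.4, 93.1, 84.6 and 91.1 under e20.1, and 93.3, 96.4 and 104 under e21.1, against 99.1, 107 and 116 FPKM in Renilla and 104, 113 and 121 FPKM in mock. Replicates 2 and 3 of e12.4 lay within the range of both controls, and without the 2 Slc1a5 was called against mock (-0.24, limma adjusted p = 0.0359) and not against Renilla (limma adjusted p = 0.121).

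Slc7a1, the arginine and lysine carrier, was arranged otherwise. It averaged 47.2 ± 6.87 FPKM over the 12 guide libraries, against 60.6 ± 4.005 FPKM in Renilla and 56.8 ± 3.26 FPKM in mock, and its lowest values, 30.9 and 39.6 FPKM, were in replicate 3 of e21.1 and replicate 2 of e20.1. Its log2 fold change against Renilla was -0.36 with SE 0.11, limma adjusted p = 0.0509 with all libraries and -0.30 with SE 0.08, limma adjusted p = 0.0193 without the 2. Slc38a2, a sodium-coupled carrier of small neutral amino acids, fell against both controls without the 2 (-0.35 and -0.34). Slc6a9, the glycine transporter, was at 7.51, 5.83 and 21.6 FPKM under e12.3, 5.46, 5.41 and 5.92 under e12.4, 4.67, 5.03 and 6.99 under e20.1, and 4.02, 6.39 and 13.8 under e21.1, against 6.56, 8.76 and 10.2 FPKM in Renilla and 7.5, 8.53 and 11.8 FPKM in mock. Both libraries that stand apart exceeded every control. Without them it was called against mock (-0.60, limma adjusted p = 0.0204) and narrowly missed the threshold against Renilla (limma adjusted p = 0.0506). Its exons share 1429 bases with Ccdc24 on the other strand, which averaged 0.122 FPKM.

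The 12 cytosolic tRNA synthetases moved within a narrow band. Over all libraries 3 fell against Renilla and every one had a log2 fold change below 0, from -0.41 to -0.19. Without the 2 libraries 11 of 12 fell against Renilla, with a median of -0.38 and a range of -0.49 to -0.22, and 6 of 12 fell against mock, with a median of -0.29. These enzymes load each amino acid onto its own tRNA, and the genes listed are among those that ATF4 is known to raise.

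Eprs, which joins the glutamyl and prolyl enzymes in one protein, was at 118, 101 and 167 FPKM under e12.3, 108, 102 and 101 under e12.4, 107, 105 and 104 under e20.1, and 105, 103 and 134 under e21.1. Renilla held 175, 140.2 and 133 FPKM and mock 148, 135 and 138 FPKM. The 10 other guide libraries lay below all 6 controls. Its log2 fold change against Renilla was -0.41 with SE 0.12, limma adjusted p = 0.0412 with all libraries, a call that held in 4 of 18 leave-one-out fits (limma adjusted p from 0.0038 to 0.26), and -0.49 with SE 0.08, limma adjusted p = 0.000514 without the 2.

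Lars, the leucyl enzyme, stood at 81.6, 79.4 and 97.9 FPKM under e12.3, 79.3, 76.5 and 71.4 under e12.4, 78.5, 76.1 and 71.2 under e20.1, and 76.2, 75.1 and 82.6 under e21.1, against 138, 93.0 and 85.2 FPKM in Renilla and 99.2, 97.1 and 91.7 FPKM in mock. Apart from e12.3 replicate 3 every guide library lay below the controls, and Renilla replicate 1 stood far above the other Renilla libraries. Lars fell against Renilla over all libraries (-0.39 with SE 0.11, limma adjusted p = 0.0303). Without Renilla replicate 1 the log2 fold change was -0.18 and not called (limma adjusted p = 0.24), and the call was also lost without e12.4 replicate 3. Iars, the isoleucyl enzyme, was found at 72.2, 72.3 and 90.4 FPKM under e12.3, 68.0, 66.8 and 67.9 under e12.4, 67.5, 51.0 and 71.95 under e20.1, and 64.0, 63.2 and 68.8 under e21.1, against 90.4, 83.4 and 86.3 FPKM in Renilla and 83.4, 78.5 and 85.9 FPKM in mock. Replicate 2 of e20.1 was the lowest and replicate 3 of e12.3 the highest of the 18 libraries. Iars fell against Renilla (-0.34 with SE 0.09, limma adjusted p = 0.0219), a call lost when any one Renilla library was left out (limma adjusted p up to 0.11) and held in the 15 other such fits.

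Gars, the glycyl enzyme, was at 146, 143 and 241 FPKM under e12.3, 142, 132 and 129 under e12.4, 138, 152 and 135 under e20.1, and 135, 135 and 198 under e21.1, against 237, 165 and 153 FPKM in Renilla and 179.7, 167 and 159.9 FPKM in mock. Wars, the tryptophanyl enzyme, was at 30.6, 29.6 and 51.0 FPKM under e12.3, 27.1, 28.1 and 26.4 under e12.4, 28.4, 24.7 and 27.8 under e20.1, and 27.1, 27.6 and 34.8 under e21.1, against 37.3, 35.3 and 36.5 FPKM in Renilla and 39.5, 39.1 and 34.6 FPKM in mock. For both genes the 10 other guide libraries lay below every control library. Without the 2, Gars was called against Renilla (-0.39, limma adjusted p = 0.018) and not against mock (limma adjusted p = 0.0809), while Wars was called against both (-0.37 and -0.42, limma adjusted p = 0.000516 and limma adjusted p = 0.000184). Tars, the threonyl enzyme, had the smallest change, at 73.8, 79.7 and 86.8 FPKM under e12.3, 74.8, 81.3 and 82.5 under e12.4, 65.7, 91.9 and 83.1 under e20.1, and 65.1, 72.8 and 78.2 under e21.1, against 84.3, 83.8 and 98.3 FPKM in Renilla and 78.1, 82.9 and 85.6 FPKM in mock. The groups overlapped, and Tars was the synthetase that was not called against Renilla without the 2 (-0.22, limma adjusted p = 0.115). The others, Aars, Sars, Yars, Nars, Mars and Cars, fell against Renilla without the 2 by log2 fold changes from -0.43 (Sars) to -0.32 (Yars).

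**Figure D3:**
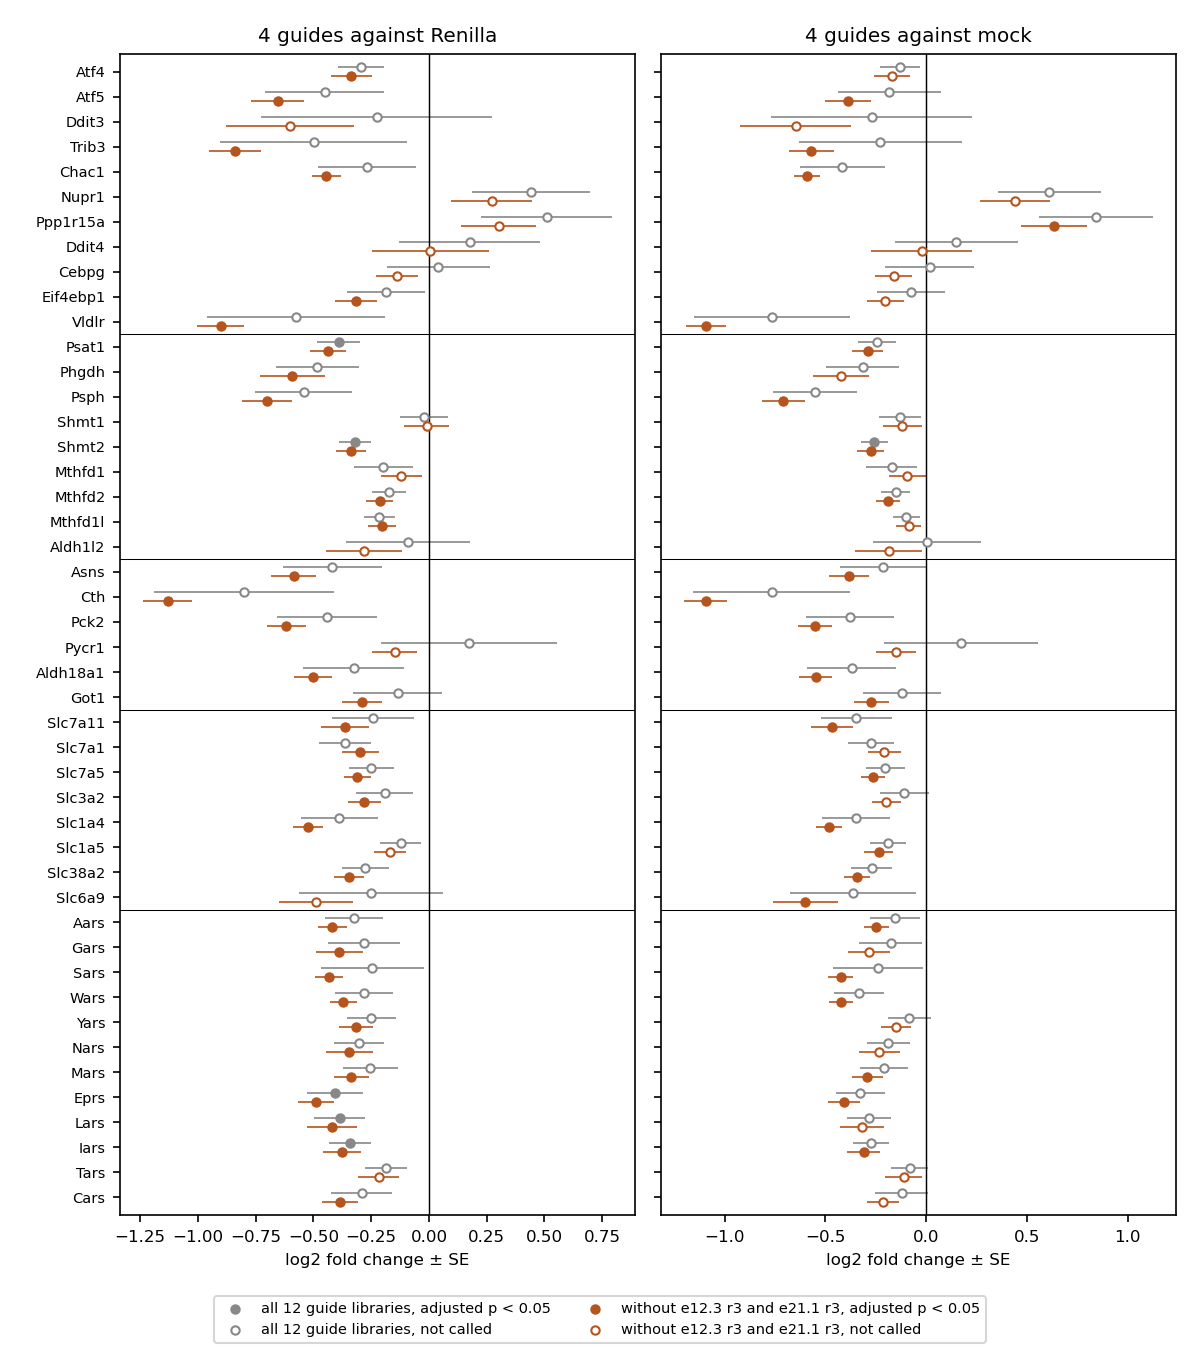
Log2 fold change of the 4 guides together for each tested member, against Renilla (left) and against mock (right), with bars of 1 SE, for all libraries and without replicate 3 of both e12.3 and e21.1, with filled points for genes called at a limma adjusted p under 0.05. Most points without the 2 libraries lie further to the left and carry shorter bars, and in that setting 34 members are filled against Renilla.

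Guide by guide, every guide gave a median below that of all genes, and the counts of called members differed. With all libraries and against Renilla, no member was called with e12.3 (0.173% of all genes fell), 3 fell with e12.4 (1.52% of all genes), 3 with e20.1 (1.06%) and 5 with e21.1 (2.45%). Psat1 and Shmt2 were among them for e12.4, e20.1 and e21.1. Without the 2 libraries 11 members fell with e12.3 (1.09% of all genes), 26 with e12.4 (4.55%), 23 with e20.1 (3.58%) and 27 with e21.1 (2.96%), where e12.3 and e21.1 then rest on 2 libraries each. The counts of single guides with all libraries were sensitive to single libraries. Leaving out 1 of 18 gave 0 to 9 members for e12.4 against Renilla, 0 to 6 for e20.1 and 2 to 8 for e21.1. Each count was lowest without Renilla replicate 1 or 2 and highest without replicate 3 of e12.3. That of e12.4 was also 0 without replicate 1, 2 or 3 of e12.4, and that of e21.1 was also 2 without its replicate 2. With all libraries the medians of the members against Renilla were -0.11 with e12.3 (-0.01 for all genes tested), -0.36 with e12.4 (-0.03), -0.34 with e20.1 (-0.03) and -0.29 with e21.1 (-0.02). They were -0.31, -0.36, -0.34 and -0.43 without the 2 libraries, in that order of guides, beside -0.03 for all genes tested with each.

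Against mock without the 2 libraries, 8 members fell with e12.3 (0.918% of all genes), 15 with e12.4 (4.11%), 15 with e20.1 (3.46%) and 21 with e21.1 (2.44%). Ppp1r15a rose with e12.4 (8.15% of all genes rose) and with e20.1 (7.13%). With all libraries 1 member fell with e12.4 (Psph, 1.26% of all genes), 1 with e21.1 (Shmt2, 1.35%), and none with e12.3 (0.121%) or e20.1 (0.909%). Leaving out replicate 3 of e12.3 raised these counts to 3 for e12.4, 5 for e20.1 and 4 for e21.1. Leaving out mock replicate 2 gave 0 for each of e12.4 and e21.1. The count of e12.4 was also 0 without mock replicate 1 or 3, or without replicate 1, 2 or 3 of e12.4. The Renilla and mock libraries are shared by all 4 guides, so the guides' results are not independent of each other. Between the controls themselves no member was called (0% of all genes, limma adjusted p under 0.05), with a median of 0.06 for Renilla against mock.

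Cth had the largest log2 fold change against Renilla with all 4 guides together, and was followed guide by guide. Against Renilla and without the 2 libraries it fell with every guide, with log2 fold changes of -1.01 under e12.3, -0.96 under e12.4, -0.94 under e20.1 and -1.61 under e21.1. In the same order, Trib3 fell with log2 fold changes of -0.77, -0.77, -0.67 and -1.14, and Psph had log2 fold changes of -0.47, -0.98, -0.56 and -0.78, the first of which was not called. The difference among the 4 guides itself was tested with the limma F test, and no member passed in either setting, beside 0% of all genes with all libraries and 0.026% without the 2. Without adjustment p of this F test was under 0.05 for 1 member with all libraries (Psph), beside 238 of the 11550 genes tested. Without the 2 libraries it was under 0.05 for 5 members (Cars, Chac1, Cth, Psph and Trib3), beside 190 of the 11550.

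**Figure D4:**
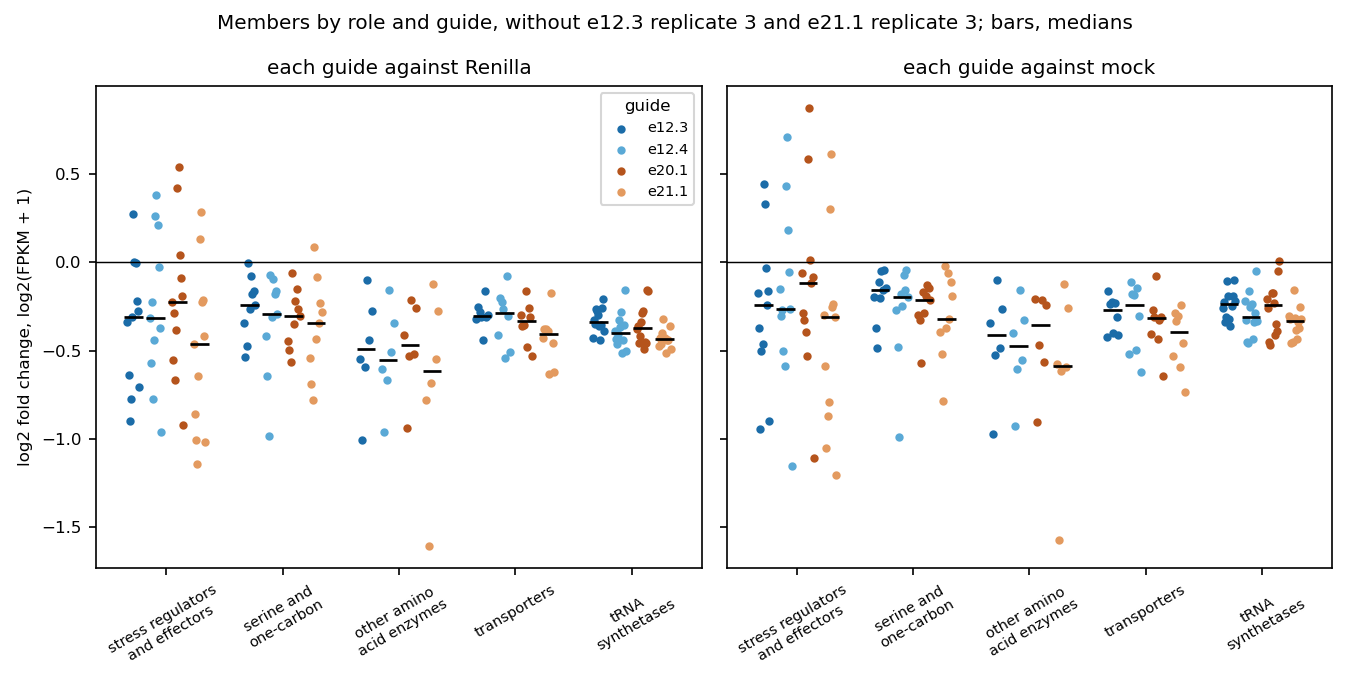
Log2 fold change (vertical axis) of each tested member by role (horizontal axis), against Renilla (left) and against mock (right), without the 2 libraries that stand apart, with 1 point for a member with 1 guide, colours for the 4 guides and black bars for the median of a role with a guide. The medians lie between -0.61 and -0.12 in every role.

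The 2 libraries that stand apart held most members above their own group. In replicate 3 of e12.3, 44 of 46 members were above both other e12.3 libraries, beside 44.1% of all genes, and 16 were at least 1 log2 unit above the mean of those libraries, beside 2.76% of all genes. In replicate 3 of e21.1 the counts were 42 of 46, beside 42.3%, and 15, beside 3.66%. The median difference over the members was 0.75 and 0.55, against 0.03 and 0.01 for all genes tested. Role by role, stress genes had medians of 1.11 and 1.15, other amino acid enzymes 1.12 and 1.01, transporters 0.56 and 0.44, synthetases 0.53 and 0.35, and serine and one-carbon genes 0.24 and 0.19.

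Ddit3 was highest above its group in both libraries, by 2.27 and 2.26 log2 units, followed by Trib3 (2.10 and 2.0), Vldlr (2.08 and 1.83), Cth (1.89 and 2.05) and Pycr1 (1.82 and 2.04). Atf4 itself was higher by 0.32 and 0.19. The members that were not above both other libraries were Mthfd1 and Slc7a1 in e12.3 replicate 3, and Shmt1, Mthfd1, Mthfd1l and Slc7a1 in e21.1 replicate 3. Set against the 6 control libraries, 34 of 46 members in e12.3 replicate 3 and 21 of 46 in e21.1 replicate 3 exceeded every control, where the 10 other guide libraries had 0 to 3 such members. In e21.1 replicate 3 these 21 held 10 of 11 stress genes and all 6 other amino acid enzymes, and 1 of 12 synthetases and 1 of 9 serine and one-carbon genes. Of those 9, 6 lay below every control library. The share of all genes outside the control range is not given for these libraries. These counts therefore do not separate a change in the members from a change over all genes.

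Other readouts moved in the same libraries. The 6 neutrophil markers summed to 909.9 and 634 FPKM in replicate 3 of both e12.3 and e21.1, against 103 to 566 in the 10 other guide libraries, 99.5 to 184 in Renilla and 85.2 to 113 in mock. Mmp8, of the same list, was not raised in them, at 1.52 and 3.49 FPKM against 2.96 to 7.16 in the 10 other guide libraries. Myeloid progenitor markers summed to 5139 and 4004 FPKM, against 1988 to 3351 in the 10 other guide libraries, 4683 to 5577 in Renilla and 5027 to 5283 in mock. The 4 megakaryocyte markers summed to 2.73 and 2.62 FPKM, against a median of 13.7 in the 10 other guide libraries, 11.9 in Renilla and 10.7 in mock. The drop lay mostly in Itga2b, which was at 1.39 and 1.46 FPKM and averaged 11.92 FPKM in the 10 other guide libraries. Depth was 71.8 and 80.8 M reads, the highest of the 12 guide libraries. The 10 listed S-phase genes did not set these libraries apart in direction, since all 10 lay below the mean of the other libraries of the group in replicate 3 of each of the 6 groups. Their median differences on the log2 scale were -0.37 in e12.3 and -0.75 in e21.1, beside -0.29 in e12.4, -0.29 in e20.1, -0.29 in Renilla and -0.22 in mock. The part of these readouts in the levels of the members was not tested.

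**Figure D5:**
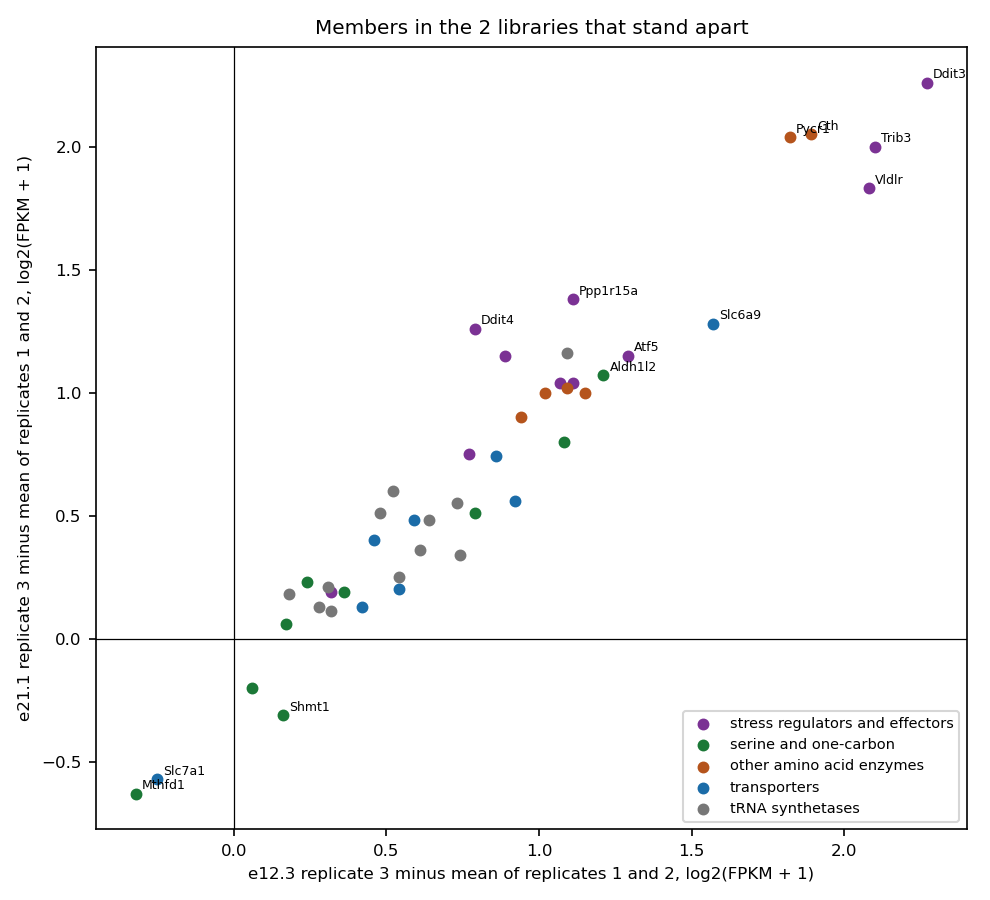
Each member's log2(FPKM + 1) in e12.3 replicate 3 (horizontal axis) and e21.1 replicate 3 (vertical axis) minus the mean of the other libraries of the same guide, coloured by role. Points lie mostly in the upper right, up to 2.27 and 2.26 for Ddit3, with Mthfd1 and Slc7a1 below 0 on both axes.

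Lists of genes around the ATF4 pathway are given against Renilla. Their counts stand beside 3.21% of all genes that fell and 7.77% that rose over all libraries, and 7.07% and 11% without the 2, and no list was tested as a set. Of 15 genes for eIF2 kinases, the eIF2 phosphatase and the exchange factor eIF2B, none was called against Renilla over all libraries and 2 fell without the 2 (Eif2b4 and Eif2b3, both eIF2B subunits), with medians of -0.09 and -0.05. Of 18 genes in the IRE1 and ATF6 arms of the unfolded protein response, 2 rose over all libraries (Edem1, which sends misfolded protein to degradation, by 0.45, and Atf6 by 0.44), and 3 rose and 1 fell without the 2 (Hyou1, a chaperone of the endoplasmic reticulum, at -0.42). Edem1 was at 63.5 to 104 FPKM in the 12 guide libraries, lowest in replicate 3 of e12.3, against 57.8 to 68.2 in Renilla and 61.7 to 65.6 in mock. Of 11 cytosolic tRNA synthetases outside the list, none fell over all libraries and 2 fell without the 2 (Vars and Rars), with medians of -0.21 and -0.18, while all 11 were below 0 in both. Of 17 mitochondrial synthetases 1 fell over all libraries (Cars2) and 6 without the 2, with medians of -0.26 and -0.23.

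Of 17 tested genes of the wider folate and methionine cycles, 2 rose and 3 fell against Renilla in both settings. The 2 that rose were Ggh, a folate hydrolase of the lysosome (log2 fold change 0.71), and Mthfd2l; those that fell were Fpgs, Slc19a1, which carries folate into cells, and Mtr, the methionine synthase (-0.46). Of 15 tested genes in a further list of ATF4-linked genes, 3 rose against Renilla over all libraries, and without the 2 libraries 4 rose and 2 fell. Hmox1, the haem oxygenase that also answers to NRF2, rose most, at 10.8 to 29.6 FPKM in the 12 guide libraries against 2.84 to 4.46 in Renilla and 3.48 to 4.90 in mock (log2 fold change 2.08, SE 0.23, limma adjusted p = 1.78e-05). Stc2, a secreted glycoprotein that ATF4 is known to raise, was at 60 and 46.0 FPKM in replicate 3 of both e12.3 and e21.1, and at 16.1 to 25.0 in the other guide libraries, against 26.6 to 34.2 in Renilla and 28.0 to 35.5 in mock, and it fell without the 2 (-0.62, limma adjusted p = 0.0015).

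Both members with and members without a match to the response element fell. Without the 2 libraries 12 of the 15 members with a match fell against Renilla, with a median log2 fold change of -0.39, and 14 of the 21 tested members whose window holds none fell, with a median of -0.34. Of all genes tested 7.07% fell in that comparison. Over all libraries the medians were -0.28 and -0.25. No test was made between these sets.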

How the data were processed

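Poly(A) RNA of a mouse leukaemia was sequenced in 18 libraries made with a directional kit, per the labels' protocols. The deposited values are FPKM made by the authors with Salmon 0.13.0 on mm10 and DESeq2 1.22.1 in R 3.5.3, after bcl2fastq 2.22.0.422, per the submitters' processing notes. The table holds 23899 genes in 18 libraries. The 15 separate tables differ from it by at most 3.3e-06 FPKM, and 25 gene names differ in each, so names came from the joint table.

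The values are not counts, so the count tests were not run, and limma 3.58.1 with trend in R 4.3.3 was fitted to log2(FPKM + 1), which understates the change of weakly expressed genes. The 11550 genes that averaged 1 FPKM or more entered 1 model of group means over all 18 libraries, with Benjamini-Hochberg adjustment over all of them. The 4 guides together were weighted equally. The code was tested on simulated data. Depth was estimated from 1473 genes that have 1 transcript of 2000 bases or longer, whose low values lay within 0.1 of whole reads in 98.7 to 100.0% of cases per library.

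The members and lists were chosen with earlier results of these data known. Members named with a value in every library are Atf4, Ddit3, Trib3, Chac1, Asns, Psat1, Phgdh, Shmt2, Mthfd2, Slc7a11, Slc7a5, Slc3a2, Gars, Wars, those called with the 4 guides together, and those with the largest and smallest difference of each role. Of the other lists, called genes with the smallest p are named, at most 4 a list. Promoters were matched by symbol to RefSeq (GRCm38.p6). Gene overlaps came from GENCODE, which holds 98.92% of the symbols. Other members also share exon bases with other genes. Psph shares 452 with Cct6a and Atf5 shares 82 with Nup62, on the opposite strand. Aars shares 1326 with Exosc6 on the same strand. Alternatives were pseudocounts of 0.1 and 5, no filter or at least 5 FPKM in 3 libraries, a fit of the compared groups alone, the replicate number as a block, upper-quartile scaling, both controls joined, and each library left out. Leaving out 4 libraries was chosen after seeing the data, and the 2 libraries that stand apart were also recognised from these data. Tables and figures were made with Python 3.11.15, numpy 2.4.6, pandas 2.3.3 and matplotlib 3.10.9.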

Additional observations from a re-analysis of the deposited data

How the results depend on the processing

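The median log2 fold change of the members against Renilla stayed between -0.36 and -0.24 under every alternative run. The number of members called was less stable. Without the 2 libraries that stand apart, it was 34 with the 4 guides against Renilla (5 with all libraries) and 26 against mock (1 with all libraries), and it was 11 (e12.3), 26 (under e12.4), 23 (under e20.1) and 27 (under e21.1) against Renilla, and in the same order 8, 16, 16 and 21 against mock. Without the 4 libraries that stand apart, these numbers were 36 and 37 for the 4 guides. Guide by guide they were then 18, 30, 22 and 34 against Renilla and 18, 29, 23 and 33 against mock. Leaving out the 4 was an alternative chosen after seeing the data, and the 2 were also recognised from these data. With Renilla and mock together as control 12 members were called. With the compared groups alone in the fit 3 and 2 were called with the 4 guides against Renilla and mock, 17 and 28 with e12.4, 8 with e20.1 against mock, and 0 with e21.1 against either control. With no filter on the mean, e12.4 had 1 against Renilla and 0 against mock, and with upper-quartile scaling e20.1 had 1 against mock. Shares of all genes called are given above for fits without the 2 libraries and, with the 4 guides together, without the 4. For the other fits, here and below, they are not given. Those counts do not separate a change in the members from a change over all genes. The causes were not tested.

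Leaving out each library in turn gave 1 to 16 called members with the 4 guides against Renilla and 0 to 10 against mock. The range was 0 to 9 with e12.4, 0 to 6 with e20.1 and 2 to 8 with e21.1 against Renilla, and 0 to 3, 0 to 5 and 0 to 4 against mock. With e12.3, between the controls and among the guides no member was called in any of these fits.

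The signs that turned belong to members that were not called. Without the 2 libraries the log2 fold change against Renilla became -0.14 for Cebpg and -0.15 for Pycr1, and against mock -0.19 for Aldh1l2, -0.16 for Cebpg, -0.02 for Ddit4 and -0.15 for Pycr1. Without the 4 libraries it was -0.26 for Cebpg, -0.25 for Ddit4, -0.18 for Pycr1, 0.01 for Mthfd1 and 0.05 for Shmt1 against Renilla, and -0.14 for Aldh1l2, -0.17 for Cebpg, -0.05 for Ddit4 and -0.13 for Pycr1 against mock. Aldh1l2 against mock was -0.03 with a pseudocount of 0.1 and 0 with upper-quartile scaling. With single libraries left out, the ranges against Renilla were -0.08 to 0.1 for Cebpg, -0.1 to 0.03 for Shmt1, -0.05 to 0.34 for Ddit4, -0.32 to 0.04 for Aldh1l2 and -0.63 to 0.02 for Ddit3, and against mock -0.1 to 0.1 for Aldh1l2, -0.08 to 0.08 for Cebpg and -0.05 to 0.25 for Ddit4.

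The replicate number as a block gave 8 called members with the 4 guides against Renilla and 4 against mock, 6 with e12.4 against Renilla, 3 with e20.1 against mock and 4 with e21.1 against mock. Over the 45 pairs of libraries with one number in different groups, deviations from the group means correlated at -0.248 to 0.763 (median 0.117), and 26 pairs lay over 0.1, beside a median of -0.042 in 90 pairs with different numbers. For 17 of 18 libraries the best correlation was with a library of the same number, so libraries with one number share some variation. The sources used here do not say what that number stands for. The fits of the Results therefore hold no block, and this shared variation stays in their spread.

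With 3 libraries a group, the SE of the log2 fold change of the 4 guides against Renilla ran from 0.067 (Mthfd1l) to 0.50 (Ddit3) over the members, so a difference of the size of the members' median is beyond reach for those that vary most.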
